A study of Mus musculus with 12 samples.

Results

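The genes described here encode the cellular response to low oxygen and the enzymes and transporters that turn glucose into lactate. They were taken by name: 34 genes, of which 12 belong to the hypoxia response and 22 to glycolysis, out of 54367 genes in each deposited table. Aldoa has 2 entries in the tables (the other lies next to it, at chr7:126800790-126809108 on mm10), so each table held 35 entries for the set. Poly(A) RNA was sequenced from retinas of wildtype C57BL/6 mice aged 8 to 12 weeks. The right eye was burned at 4 positions with a 532 nm laser (75 µm spots, 0.1 s), and the left eye was left untreated. Lasered and control retinas were taken on day 3 and on day 7 after the laser, giving 4 groups of 3 libraries and 12 in all. The control is thus an untreated fellow eye, and no retina of a mouse without laser was analysed here. By its title the study is about angiogenesis of the retina during an inflammatory stage. The labels do not say whether libraries with the same number come from 1 mouse, so the p-values here measure only the spread among the samples.

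When oxygen is sufficient, prolyl hydroxylases of the Egln family mark the transcription factor subunits Hif1a and Epas1 for destruction; when oxygen is short, the subunits accumulate and switch on target genes through hypoxia response elements in DNA. Those targets include genes of glycolysis, lactate export and mitochondrial turnover. The retina, and its photoreceptors above all, converts much of its glucose to lactate even when oxygen is present, so glycolytic transcripts are abundant there without any injury. Hif1a is regulated mainly at the protein level, which RNA does not show.

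The core of the hypoxia response element is short: ACGTG or GCGTG on either strand. Promoter windows were taken from RefSeq (GRCm38.p6, the same build as mm10), from 250 bases before to 50 after each gene's start, and 30 of the 34 genes had an entry. The letters occur in 14380 of all 32851 windows (43.8%) and in 35 of the 43 windows of the set (81.4%), or 27 of its 30 genes. The windows of the set are richer in G and C (median 62.3% against 52.7%), and the part of base composition in the higher share was not tested. A CACGTG stretch counts as 2 matches, 1 per strand. The stretches upstream of 5 genes on which the values turn are printed 5′ to 3′, without exon bases and with matches in capitals. Ankrd37 and Bnip3 stand for hypoxia targets, Pgam1 and Hk1 had the smallest p-values of the set on day 3, and Hk2 had the smallest on day 7.
Ankrd37 (chr8:45999868-46000100, minus strand): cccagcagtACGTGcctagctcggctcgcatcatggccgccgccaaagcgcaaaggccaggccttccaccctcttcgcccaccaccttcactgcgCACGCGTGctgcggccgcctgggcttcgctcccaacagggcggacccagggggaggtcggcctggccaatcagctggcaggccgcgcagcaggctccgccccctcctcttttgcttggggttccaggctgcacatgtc
Bnip3 (chr7:138909520-138909756, minus strand): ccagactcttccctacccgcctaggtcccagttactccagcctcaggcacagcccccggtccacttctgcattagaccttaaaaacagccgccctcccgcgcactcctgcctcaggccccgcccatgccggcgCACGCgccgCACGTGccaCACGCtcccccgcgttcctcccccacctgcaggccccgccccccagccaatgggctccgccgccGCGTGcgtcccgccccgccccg
Pgam1 (chr19:41911621-41911870, plus strand): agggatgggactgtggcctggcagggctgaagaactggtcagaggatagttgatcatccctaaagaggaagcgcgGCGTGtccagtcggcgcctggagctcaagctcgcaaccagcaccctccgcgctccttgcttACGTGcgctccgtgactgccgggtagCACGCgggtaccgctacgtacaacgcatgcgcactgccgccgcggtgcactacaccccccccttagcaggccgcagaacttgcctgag
Hk1 (chr10:62379909-62380158, minus strand): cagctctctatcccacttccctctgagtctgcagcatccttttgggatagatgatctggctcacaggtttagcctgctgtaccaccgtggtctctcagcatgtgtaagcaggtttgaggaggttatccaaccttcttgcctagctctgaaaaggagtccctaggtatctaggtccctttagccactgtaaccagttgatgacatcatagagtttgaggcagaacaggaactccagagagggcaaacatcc
Hk2 (chr6:82774455-82774704, minus strand): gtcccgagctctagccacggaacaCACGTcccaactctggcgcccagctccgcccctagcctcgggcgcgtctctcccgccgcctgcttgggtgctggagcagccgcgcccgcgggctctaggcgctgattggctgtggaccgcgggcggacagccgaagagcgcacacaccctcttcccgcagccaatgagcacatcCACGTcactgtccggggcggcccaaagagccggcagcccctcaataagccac
The stretch before Ankrd37 holds 3 matches, that before Bnip3 5, that before Pgam1 3, that before Hk2 2 and that before Hk1 0. RefSeq gives Hk1 another start (window chr10:62340372-62340671), mostly exon and not printed, with 5 matches in its 300 bases. A match is only a run of letters, and its absence says nothing of the factor.

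All values are the deposited signal, which the authors name TPM (reads per length of gene, scaled to the library). Differences are lasered minus control on log2(value + 1), with limma's standard error (SE) and p-value and the Benjamini-Hochberg adjusted p over all genes of the day with a mean of at least 1. The threshold was an adjusted p of 0.05. Reads assigned to genes came to between 9282009 and 12515838 per library on day 3 and between 23886214 and 31092889 on day 7. For a gene with 1 kb of exons, 3 reads correspond to 0.428 to 0.612 in the libraries of day 3 and 0.291 to 0.365 in those of day 7. Retina markers were present in all libraries: the 8 rod genes summed to 9436 or more on day 3 and 41358 or more on day 7.

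No member passed the threshold on either day. On day 3, 0 of 33 tested entries passed, against 0.149% of 16786 genes (0.143% higher and 0.00596% lower), and the smallest adjusted p was 0.0895 (Pgam1). On day 7, 0 of 34 passed, against 0.244% of 15592 genes (0.237% higher and 0.00641% lower), and the smallest adjusted p was 0.9998. At an unadjusted p under 0.05, 5 of 33 entries (15.2%) were higher and 0 lower on day 3, where 20.7% of all genes were higher and 2.29% lower. On day 7, 0 were higher and 1 of 34 was lower, where 3.14% of all genes were higher and 0.795% lower. With library weights, an alternative that gives noisy libraries less say, 1 of 33 entries passed on day 3, where 369 of 16786 genes did. It was Pgam1 (1.04, adjusted p = 0.0448 by limma). The change of the laser difference from day 3 to day 7 passed for 0 of 33 entries and for 0 of 17611 genes (0%). In this comparison day and table, which also differ in depth, cannot be told apart. At an unadjusted p under 0.05, 4 members had a lower difference on day 7 and 1 a higher one, where 8.43% and 0.96% of all genes did.

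**Figure D1:**
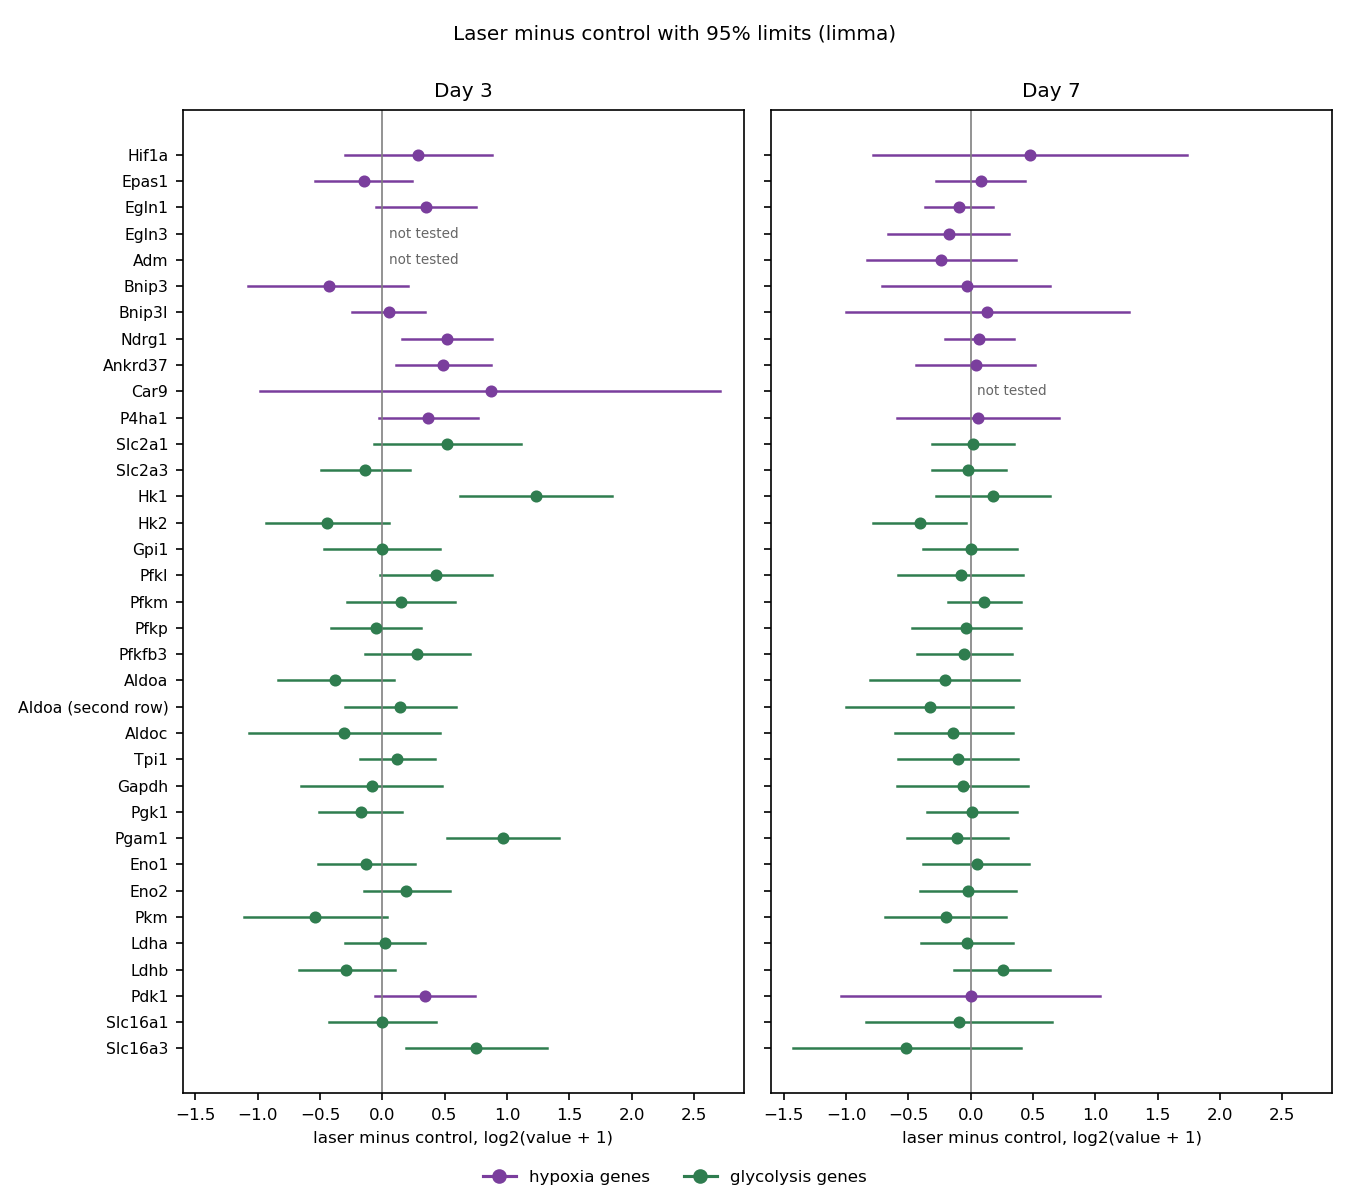
Each point is the lasered minus control difference of 1 member on the log2(value + 1) scale (horizontal axis), with limma's 95% limits, on day 3 (left) and day 7 (right). On day 3 the intervals of Hk1, Pgam1, Ndrg1, Ankrd37 and Slc16a3 lie above 0. On day 7 the interval of Hk2 lies below 0, and the others cross it.

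Differences were positive for 8 of 10 hypoxia members and 12 of 23 glycolysis entries on day 3, where they were positive for 11455 of all 16786 genes. The median difference of the tested hypoxia members was 0.35, beside a median of 0.16 over all genes. The tested glycolysis entries had a median of 0.00. Rescaling by the median of ratios moved the median of all genes to -0.02, that of the hypoxia members to 0.16 (7 of 10 positive) and that of the glycolysis members to -0.22 (6 of 23 positive). Groups did not overlap, with every lasered library above every control, in 8 of 33 entries (24.2%, against 27.7% of all genes): Egln1, Ndrg1, Ankrd37, P4ha1, Pdk1, Hk1, Pgam1 and Slc16a3. Of these 8, 5 were among the 10 hypoxia members and 3 among the 23 glycolysis entries. Ldhb alone lay lower without overlap (1 of 33, 3.03%, against 3.82%). On day 7 the medians were 0.04 for 11 hypoxia members and -0.05 for 23 glycolysis entries, beside 0.06 over all genes, and 0 of 34 lay higher without overlap (against 6.78%).

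The lasered libraries of day 3 were unequal in their cell markers. In lasered replicate 1 the 6 cone markers summed to 331.6, against 1665 and 1672 in lasered replicates 2 and 3 and 2447 to 2550 in controls. Its 8 rod markers summed to 9436, against 23225 and 17202 in the other lasered libraries and 19721 to 25151 in controls. Its 6 reactive glia markers summed to 6239, against 347 and 594.5 in the others and 55.9 to 67.4 in controls. All 6 reactive glia markers lay above every control without overlap and 2 passed. The 7 macrophage and monocyte markers summed to 883.3, 72.2 and 120.6 in lasered replicates 1, 2 and 3 and to 14.7 to 17.2 in controls, where Ccr2 was at 0. The 5 neutrophil markers summed to 1097, 3.02 and 59.1 and to 1.64 to 3.81 in controls, where Ly6g and Mpo were at 0. Lasered replicate 1 was the lowest of the 6 libraries in 13 of 23 glycolysis entries (56.5%, against 20.5% of all genes) and the highest in 4 of 10 hypoxia members (40%, against 39.8%). The part of these cells in the members' values was not tested. In a whole retina, fewer cells of a type and less RNA per cell cannot be told apart.

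**Figure D2:**
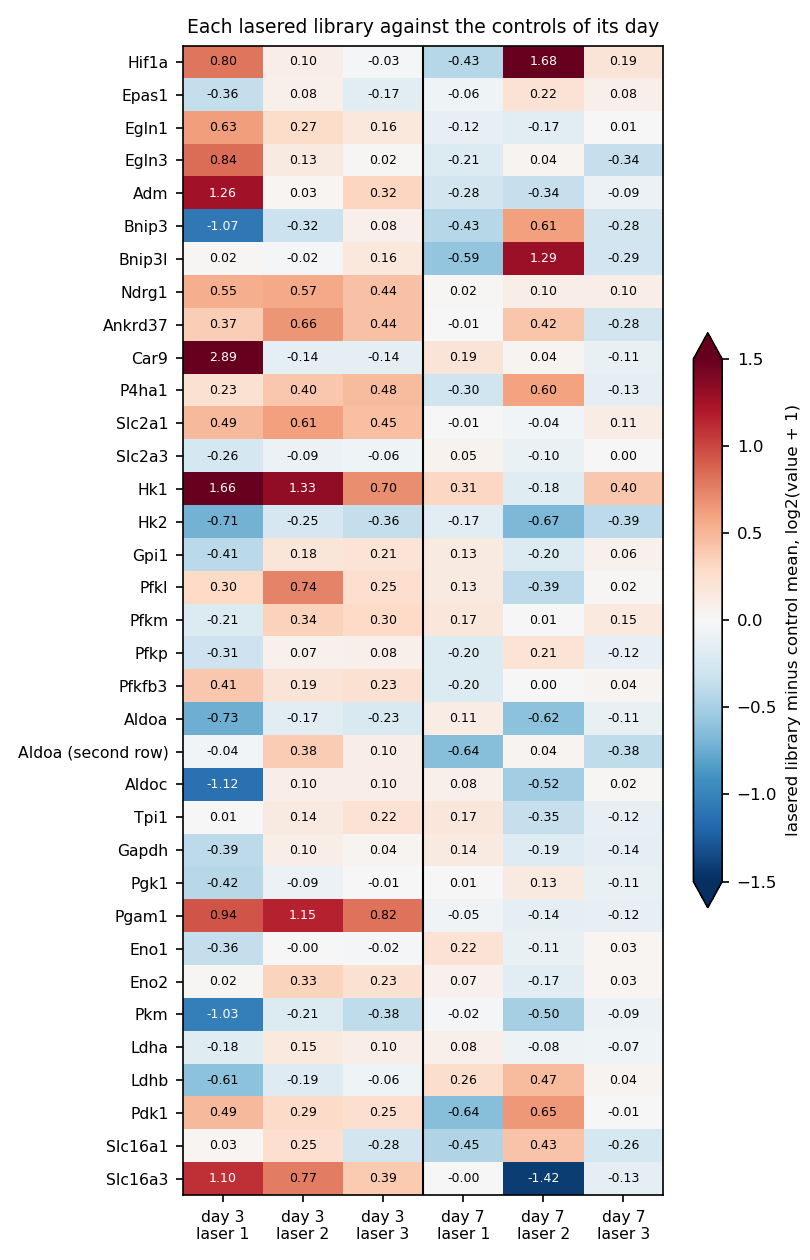
Rows are the members and columns the 6 lasered libraries; each cell gives the library's value minus the mean of the controls of its day on the log2(value + 1) scale, with red above and blue below the controls. On day 3 lasered replicate 1 is blue for Bnip3 (-1.07), Aldoc (-1.12) and Pkm (-1.03), while Hk1 and Pgam1 are red in all 3 lasered libraries. On day 7 lasered replicate 2 stands apart, from Hif1a (1.68) to Slc16a3 (-1.42).

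Among the oxygen sensing genes, Hif1a (chr12:73901375-73947530), the oxygen-regulated subunit of the HIF1 factor, stood at 50.1, 34.5 and 39.8 in controls 1, 2 and 3 and at 72.0, 44.1 and 40.2 in lasered replicates 1, 2 and 3 on day 3. Only lasered replicate 1 lay above the controls, and the difference was 0.29 (SE 0.25, adjusted p = 0.519 by limma) with it and 0.04 without it. Epas1, the subunit of HIF2, was between 17.4 and 22.03 in controls and between 14.7 and 20.2 in lasered eyes (-0.15, SE 0.17). Egln1, the main prolyl hydroxylase that senses oxygen, stood at 5.66, 5.33 and 6.16 in controls and at 9.39, 7.10 and 6.47 in lasered eyes. Its groups did not overlap, by a margin of 6.16 to 6.47, and the difference of 0.35 (SE 0.17, adjusted p = 0.260) was 0.04 once each library's trend with GC content was removed. Egln3, a prolyl hydroxylase that hypoxia itself induces, had 0, 5 and 1 reads in controls and 13, 4 and 2 in lasered eyes, too few to be tested.

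On day 7 the same 4 genes overlapped between groups. Hif1a stood at 14.5, 32.5 and 24.5 in controls and at 16.5, 74.7 and 26.0 in lasered eyes. The difference of 0.48 (SE 0.54, adjusted p = 0.9998) rested on lasered replicate 2 and was -0.12 without it. Egln3 was now measurable, at 7.98, 6.47 and 7.31 in controls and 6.09, 7.43 and 5.50 in lasered eyes (-0.17, SE 0.21, adjusted p = 0.9998). Egln1 lay between 109.5 and 115.8 in controls and between 98.7 and 112.6 in lasered eyes.

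**Figure D3:**
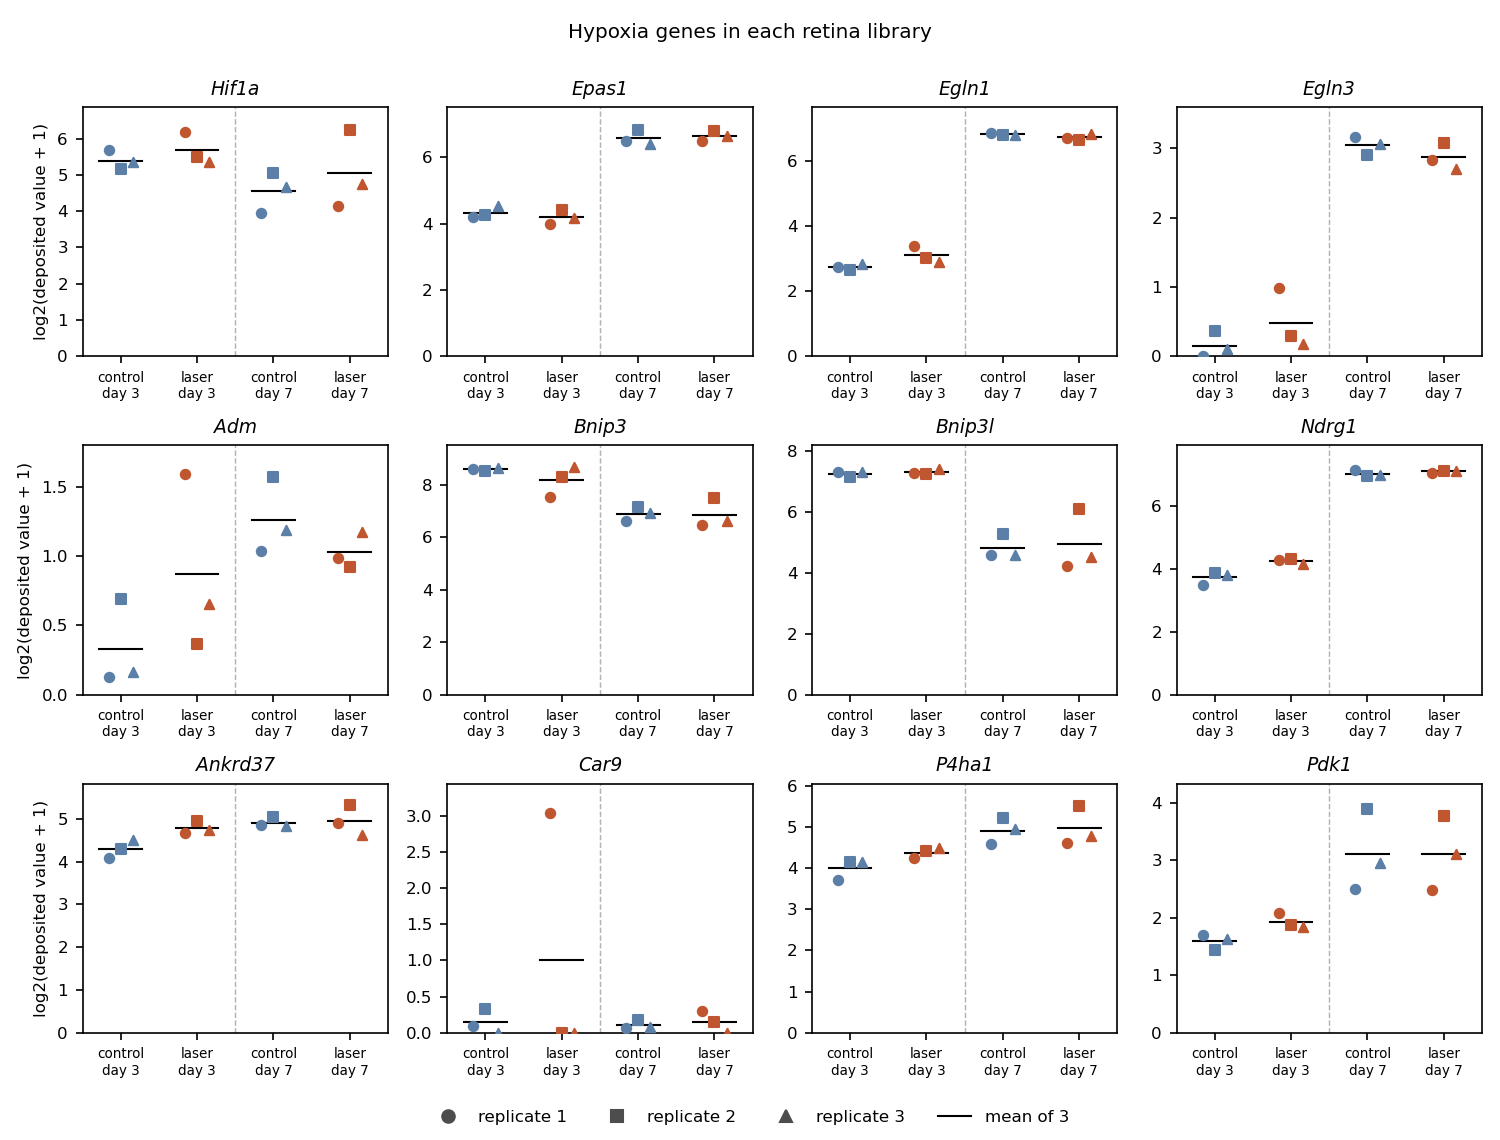
Each panel shows 1 of the 12 hypoxia genes; points are libraries (shape gives the replicate number), lines are means of 3, and the vertical axis is log2(deposited value + 1). On day 3 the lasered points of Ndrg1, Ankrd37, P4ha1, Egln1 and Pdk1 lie above all controls, and Car9 is raised in 1 library. Days have tables of their own, so levels are to be compared within a day.

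The hypoxia-induced genes differed from each other on day 3. Ndrg1 (chr15:66929318-66969640), a stress protein of the NDRG family that responds strongly to low oxygen, stood at 10.2, 13.7 and 13.1 in controls and at 18.5, 18.7 and 17.0 in lasered eyes. The lasered libraries were close to each other and all above the controls, with a difference of 0.52 (SE 0.15, adjusted p = 0.122), and 0.51 without lasered replicate 1. The Ndrg1 difference was smaller, 0.31, after median-of-ratios rescaling and 0.33 with the GC trends removed. Ankrd37 (chr8:45996902-46005707), an ankyrin repeat gene and a direct HIF1 target, stood at 15.96, 18.6 and 21.8 in controls and at 24.4, 30.1 and 25.7 in lasered eyes (0.49, SE 0.16, adjusted p = 0.145). After median-of-ratios rescaling it differed by 0.27, and with the GC trends removed by 0.29. Of its exon bases 22.7% are shared with Lrp2bp on the opposite strand, and whether the counting used strand is not given here. P4ha1, a subunit of the collagen prolyl hydroxylase, stood at 12.2, 16.7 and 16.7 in controls and at 17.8, 20.2 and 21.3 in lasered eyes (0.37, SE 0.17, adjusted p = 0.241). For these 3 genes each lasered library lay above the control mean, by 0.23 to 0.66.

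Bnip3, which directs the removal of mitochondria under low oxygen, had a negative difference. It stood at 388.7, 365.0 and 400.1 in controls and at 183.1, 307.7 and 407.2 in lasered eyes, so that the low values were those of lasered replicates 1 and 2 (-0.43, SE 0.27, adjusted p = 0.378). Of its exon bases 22.3% are shared with a gene on the opposite strand. Its relative Bnip3l stayed between 139.4 and 157.4 in controls and between 148.1 and 168.4 in lasered eyes (0.05, SE 0.12). A copy of Bnip3l, picked by its annotated name without comparing sequences, carried 64.7% to 74.5% of its value. Reads may have been split between them, which was not tested.

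Car9, the carbonic anhydrase that tumours express under hypoxia, rested on 1 library. It had 1, 4 and 0 reads in controls and 86, 0 and 0 in lasered eyes, and its difference of 0.87 had an SE of 0.79 (adjusted p = 0.541). Adm, the vasodilator peptide adrenomedullin, had 1, 7 and 1 reads in controls and 16, 3 and 5 in lasered eyes and was not tested on day 3. On day 7 it stood at 1.05, 1.97 and 1.28 in controls and at 0.977, 0.895 and 1.26 in lasered eyes (-0.24, SE 0.25, adjusted p = 0.9998). Car9 had at most 5 reads in any library of day 7.

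On day 7 Ndrg1 was between 123.4 and 142.1 in controls and between 132.4 and 139.6 in lasered eyes (0.07, SE 0.12, adjusted p = 0.9998), a difference whose sign turned with the scaling (-0.03 after median-of-ratios rescaling). Ankrd37 differed by 0.04 (SE 0.20) and P4ha1 by 0.06 (SE 0.28). The change of the Ndrg1 difference from day 3 to day 7 was -0.45 (SE 0.20, unadjusted p = 0.0410, adjusted p = 0.513 by limma). For Ankrd37 it was also -0.45 (SE 0.27, adjusted p = 0.663). Of the 11 hypoxia members tested on day 7, lasered replicate 2 was the highest library in 5 (45.5%, against 41.8% of all genes).

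Lasered replicate 2 of day 7 differed from the others in base composition. Its values fell by 0.60 on the log2 scale for every 10 points of exon GC content, relative to the mean of the day, and those of control replicate 2 fell by 0.21, while the other 4 libraries had slopes of 0.10 to 0.29. Hif1a (41.3% GC), Bnip3 (41.6%) and Bnip3l (41.9%) were highest in it, and Slc16a3 (56.6%) and Pkm (57.7%) were lowest. Across the 34 members tested, the correlation of that library's difference with GC content was -0.73, which is a description over genes of 1 library. With each library's GC trend removed, the difference was 0.33 for Hif1a and -0.52 for Slc16a3 (adjusted p = 0.9999 by limma for both), and the part of base composition in the members' values was not tested further.

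Glucose enters retinal cells through Slc2a1 (GLUT1), the transporter of the blood-retina barrier, photoreceptors and glia, and Slc2a3 (GLUT3), the neuronal transporter. Slc2a1 (chr4:119108711-119137983) stood at 47.9, 99.0 and 69.2 in controls and at 97.6, 105.5 and 94.9 in lasered eyes on day 3. Control replicate 2 lay within the lasered range, and the difference was 0.52 (SE 0.25, adjusted p = 0.262). It was 0.26 without control replicate 1 and 0.78 without control replicate 2. Slc2a3 stood at 16.2, 15.4 and 19.8 in controls and at 14.0, 15.9 and 16.3 in lasered eyes (-0.14, SE 0.15, adjusted p = 0.619). On day 7 Slc2a1 stood at 349.0, 266.2 and 304.9 in controls and at 302.0, 297.3 and 329.8 in lasered eyes (0.02, SE 0.14), and -0.08 after median-of-ratios rescaling. Slc2a3 stood at 76.8, 71.5 and 83.4 in controls and at 79.9, 71.8 and 77.3 in lasered eyes (-0.02, SE 0.13; adjusted p = 0.9998 for both).

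The hexokinases, which trap glucose in the cell by phosphorylating it, had differences of opposite sign on day 3. Hk1 (chr10:62268855-62379908), the broadly expressed form, stood at 25.4, 35.4 and 27.8 in controls and at 94.6, 74.7 and 48.1 in lasered eyes on day 3, the largest difference of any member in units of log2. The means were 29.5 ± 5.24 and 72.5 ± 23.3 (SD, n = 3 each), and the difference was 1.23 (SE 0.26, 95% limits 0.62 to 1.84, adjusted p = 0.0915 by limma). It kept its sign in every alternative tried, between 0.91 and 1.49, and was 1.01 without lasered replicate 1. Its reads numbered 1182 to 2031 in controls and 2232 to 4281 in lasered eyes.

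Hk2, the form that photoreceptors use and a textbook HIF1 target, stood at 61.8, 48.0 and 76.7 in controls and at 36.9, 51.2 and 47.4 in lasered eyes on day 3. The groups overlapped through control replicate 2, and the difference was -0.44 (SE 0.21, adjusted p = 0.258). On day 7 it stood at 330.0, 323.2 and 296.8 in controls and at 281.1, 198.0 and 241.0 in lasered eyes. Every lasered library then lay below every control (1 of 34 entries, 2.94%, against 2.11% of all genes), with a difference of -0.41 (SE 0.16, 95% limits -0.78 to -0.04, unadjusted p = 0.0333, adjusted p = 0.9998 by limma). It was -0.28 without lasered replicate 2. The 8 rod markers summed to 53195 to 57440 in controls and 41358 to 49788 in lasered eyes on day 7, and their part in the Hk2 values was not tested. Hk1 on day 7 overlapped, between 324.3 and 427.1 in controls and between 332.8 and 500.0 in lasered eyes (0.18, SE 0.19).

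Hk1 took a larger share of the hexokinase signal in lasered eyes on both days. As a percentage of Hk1 plus Hk2 it was 29.1, 42.4 and 26.6 in controls and 71.9, 59.3 and 50.4 in lasered eyes on day 3, a mean difference of 27.8 points. On day 7 it was 56.4, 54.6 and 52.2 in controls and 62.5, 62.7 and 67.5 in lasered eyes, 9.83 points apart. The groups did not overlap on either day, and the Hk1 share was the same once the library totals were restored. In all, 8 shares were computed per day, of isoenzymes, of the glucose transporters (Slc2a3) and of the HIF subunits (Epas1). They were chosen with values known, so they are descriptions: 3 libraries against 3 allow no exact permutation p below 0.1. Groups without overlap were found for 4 of 8 shares on day 3 and 2 of 8 on day 7. No rate over other gene pairs was computed to set beside these counts. The Pfkl and Pfkp shares are of the same 3 enzymes and are not independent. With the library totals restored, the day 3 groups overlapped for the Ldhb share and no longer did for the Pfkl share.

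**Figure D4:**
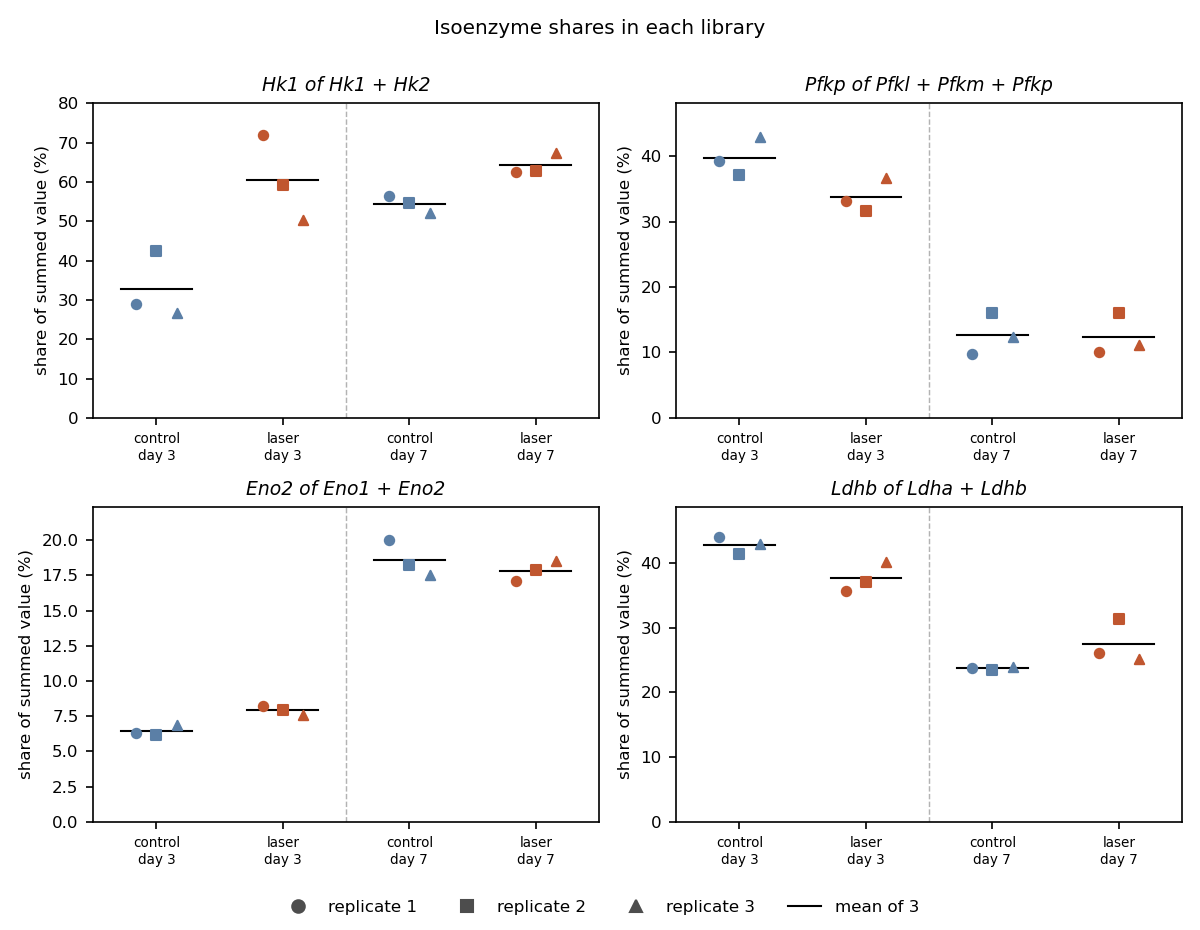
The vertical axis is the percentage that 1 isoenzyme takes of the summed deposited value of its isoenzymes, points are libraries and lines means of 3. The Hk1 share is higher in all lasered libraries on both days (60.5% against 32.7% on day 3, 64.2% against 54.4% on day 7), and the Ldhb share is lower on day 3 and higher on day 7.

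The rest of the preparatory steps showed smaller differences on day 3. Pfkl, the liver-type phosphofructokinase, stood at 67.9, 92.6 and 69.3 in controls and at 93.5, 127.3 and 90.5 in lasered eyes (0.43, SE 0.19, adjusted p = 0.234), with control replicate 2 inside the lasered range. Pfkm differed by 0.15 and Pfkp, the platelet-type form, by -0.05. The Pfkp share of the 3 phosphofructokinases was 39.3, 37.1 and 42.9 percent in controls and 33.1, 31.6 and 36.6 percent in lasered eyes, without overlap. Pfkfb3, which makes the activator of phosphofructokinase, was at 2.83 to 4.41 in controls and 4.19 to 5.05 in lasered eyes (0.28, SE 0.18). Gpi1 and Tpi1, the isomerases, differed by 0.00 and 0.12. Aldoa and Aldoc, the aldolases, differed by -0.38 and -0.31, with Aldoc at 341.4 in lasered replicate 1 and at 791.6 and 793.0 in the others.

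On day 7, 9 of the 11 preparatory entries had negative differences, where 6007 of all 15592 genes did. The lowest was that of Hk2. Over all 23 glycolysis entries 17 were negative and 6 positive. Without lasered replicate 2, 9 were negative and 14 positive. The other Aldoa entry, beside the main gene, stood at 31.9, 57.2 and 30.6 in controls and at 24.2, 39.5 and 29.1 in lasered eyes (-0.33, SE 0.29, adjusted p = 0.9998), and Aldoa itself differed by -0.21 (SE 0.26). Lasered replicate 2 was the lowest library in 6 of the 11 entries (54.5%, against 23.6% of all genes).

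In the payoff steps, which return ATP, 1 of 6 genes (16.7%) lay higher without overlap on day 3, against 27.7% of all genes, and 0 lay lower, against 3.82%. Pgam1 (chr19:41911871-41918664), the phosphoglycerate mutase of most tissues, stood at 120.5, 189.2 and 150.6 in controls and at 290.2, 335.8 and 267.1 in lasered eyes. All lasered libraries lay above all controls, and the means were 153.4 ± 34.4 and 297.7 ± 34.9 (SD, n = 3 each). The difference was 0.97 (SE 0.19, 95% limits 0.52 to 1.42, adjusted p = 0.0895 by limma), 0.98 without lasered replicate 1, and between 0.74 and 1.13 over the alternatives tried. Besides, 2 copies of Pgam1, picked by annotated name without comparing sequences, carried 66.4% to 83.2% of its value. Together they stood at 100.1, 157.3 and 101.6 in controls and 192.6, 245.9 and 198.7 in lasered eyes. Reads may have been split between Pgam1 and these copies, which was not tested. On day 7 Pgam1 stood at 2942, 2484 and 2240 in controls and at 2447, 2297 and 2340 in lasered eyes (-0.11, SE 0.17, adjusted p = 0.9998). The change from day 3 to day 7 was -1.07 (SE 0.25, unadjusted p = 0.00115, adjusted p = 0.382), the smallest p of the set in that comparison. Hk1 changed by -1.05 (SE 0.35, unadjusted p = 0.0111, adjusted p = 0.403).

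Pkm, the pyruvate kinase and 1 of the most abundant members, stood at 3879, 3832 and 2810 in controls and at 1696, 3008 and 2674 in lasered eyes on day 3. Lasered replicates 1 and 3 lay below every control and lasered replicate 2 lay within the control range (-0.54, SE 0.24, adjusted p = 0.240, and -0.29 without lasered replicate 1). On day 7 it stood at 4013, 3200 and 3535 in controls and at 3523, 2517 and 3345 in lasered eyes (-0.20, SE 0.21, adjusted p = 0.9998). Of its exon bases 15.3% are shared with a gene on the same strand. Gapdh, Pgk1 and Eno1 differed by -0.08, -0.17 and -0.13 on day 3 and by -0.06, 0.01 and 0.05 on day 7. Copies picked by annotated name carried 23.9% to 29.7% of the Gapdh value and 126% to 151% of the Eno1 value on day 3. Eno2, the neuronal enolase, differed by 0.19, and its share of both enolases was 6.33, 6.15 and 6.84 percent in controls and 8.20, 7.96 and 7.57 percent in lasered eyes on day 3. The 17 genes of glycolytic enzymes, both Aldoa entries included, summed to 17811, 20740 and 16163 in controls on day 3. In lasered eyes they summed to 12442, 17707 and 17023, and only lasered replicate 1 lay below the controls.

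At the end of the pathway, Ldha makes lactate and Ldhb favours the reverse reaction. Ldha lay between 1148 and 1260 in controls and between 1049 and 1319 in lasered eyes on day 3 (0.02, SE 0.14). Ldhb stood at 912.1, 891.7 and 867.6 in controls and at 583.2, 778.7 and 853.7 in lasered eyes (-0.29, SE 0.16, adjusted p = 0.330), without overlap but by a margin of 853.7 to 867.6. On day 7 Ldhb stood at 655.1, 531.0 and 614.6 in controls and at 717.1, 826.2 and 614.2 in lasered eyes (0.26, SE 0.16, adjusted p = 0.9998). Its change between the days was 0.54 (SE 0.24, unadjusted p = 0.0450, adjusted p = 0.519). The Ldhb share of both was 44.0, 41.4 and 43.0 percent in controls and 35.7, 37.1 and 40.1 percent in lasered eyes on day 3, and 23.8, 23.4 and 23.9 against 26.1, 31.3 and 25.1 percent on day 7. The day 3 groups of that share overlapped once the library totals were restored.

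Pdk1, the kinase that keeps pyruvate out of the mitochondria and a HIF1 target, stood at 2.26, 1.70 and 2.11 in controls and at 3.23, 2.68 and 2.60 in lasered eyes on day 3 (0.34, SE 0.17, adjusted p = 0.272). Its difference was 0.18 after median-of-ratios rescaling and 0.21 with the GC trends removed. Slc16a3 (MCT4), the lactate exporter of glycolytic cells and a HIF1 target, stood at 0.685, 1.05 and 1.16 in controls and at 3.20, 2.33 and 1.56 in lasered eyes, or 24, 37 and 30 against 84, 84 and 47 reads. The groups did not overlap, with a difference of 0.75 (SE 0.24, adjusted p = 0.136), and 0.42 after removal of the GC trends. For Slc16a3 it was 1.18 when 0.1 was added in place of 1. Its other family member Slc16a1 (MCT1) differed by 0.00 (SE 0.18). On day 7 Slc16a3 stood at 102.8, 60.0 and 74.5 in controls and at 77.0, 28.3 and 70.6 in lasered eyes (-0.52, SE 0.39, adjusted p = 0.9998), and the difference was -0.06 without lasered replicate 2. Its change between the days was -1.27 (SE 0.49, unadjusted p = 0.0244, adjusted p = 0.467 by limma). The control means of Slc16a3 were 0.966 on day 3 and 79.1 on day 7, so the added 1 shrinks its day 3 difference more. Pdk1 differed by 0.00 (SE 0.44) on day 7.

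Other genes of these pathways, taken from lists of 20 further hypoxia genes and 25 further genes of glucose, lactate and pyruvate handling, also did not pass on either day. On day 3, 3 of 17 tested hypoxia genes and 5 of 20 tested genes of the other list were higher at an unadjusted p under 0.05, and 0 lower, where 20.7% of all genes were higher. Hmox1, the haem-degrading enzyme that oxidative stress and haem also induce, stood at 7.56, 8.07 and 8.02 in controls and at 283.1, 46.7 and 35.4 in lasered eyes (3.15, SE 0.70, adjusted p = 0.0936). Its highest value was in the library with the highest macrophage, neutrophil and reactive glia sums, and the part of these cells in the Hmox1 values was not tested. On day 7 Hmox1 stood at 11.0, 7.59 and 14.3 in controls and at 22.9, 26.9 and 19.6 in lasered eyes, again without overlap (1.04, SE 0.25, adjusted p = 0.411). Bsg, the partner protein that carries lactate transporters to the cell surface, stood at 108.4, 258.7 and 160.5 in controls and at 363.5, 450.5 and 366.8 in lasered eyes on day 3 (1.24, SE 0.30, adjusted p = 0.0967). Hkdc1, a further hexokinase-like gene, stood at 4.97, 4.75 and 4.17 in controls and at 16.1, 7.96 and 9.40 in lasered eyes (1.05, SE 0.25, adjusted p = 0.0940). The 3 hypoxia genes counted on day 3 were Hmox1, Egln2 (0.60, SE 0.18, adjusted p = 0.129) and Bhlhe40 (0.53, SE 0.17, adjusted p = 0.137). Vegfa, the vascular growth factor that HIF induces, was not among them. It stood at 2.25, 2.01 and 2.43 in controls and at 3.14, 2.31 and 3.14 in lasered eyes on day 3 (0.25, SE 0.17, adjusted p = 0.410). On day 7 it differed by -0.24 (SE 0.23). Bpgm, which makes bisphosphoglycerate, lay without overlap higher on both days, where 27.7% of all genes did on day 3 and 6.78% on day 7. It differed by 0.41 (SE 0.14, adjusted p = 0.151) on day 3 and 0.38 (SE 0.12, adjusted p = 0.841) on day 7. The 5 genes of the other list counted on day 3 were Bsg, Hkdc1, Bpgm, Mpc2 and Pdk3. Mpc2 differed by 0.96 (SE 0.26, adjusted p = 0.109) and Pdk3 by 1.18 (SE 0.38, adjusted p = 0.139 by limma).

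Neighbouring routes for glucose carbon were counted in the same way. Of 7 tested pentose phosphate genes, 1 was higher at an unadjusted p under 0.05 on day 3 (Pgd, 0.35), and of 12 citrate cycle genes 2 were (Idh3g, 0.41, and Cs, 0.36), against 20.7% of all genes. On day 7, 0 of 7 and 0 of 12 were at an unadjusted p under 0.05, against 3.14% of all genes higher and 0.795% lower.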

How the data were processed

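The authors deposited 1 table per day with a signal per gene (named TPM, per the file headers) for 54367 genes and 6 libraries; 0 columns lacked a sample. STAR 2.7.0, edgeR 3.28.0 and mm10 are listed in the submitters' processing notes. Not given in the sources used here are the counting tool and its strand setting. Column sums of the deposited signal ran from 953049 to 1045986. Successive rows had been divided by the totals of the 6 libraries in turn, a factor between 0.915 and 1.09 that shifts the groups by at most 0.105 (log2) on day 3 and 0.0043 on day 7. The tests kept the deposited values, and restored totals were an added alternative. Multiplying by exon length, once that factor was taken out, (GENCODE M21) gave whole reads within 0.05 for 98.9% to 99.1% of values under 20 reads per library.

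Each day was fitted with limma 3.58.1 (R 4.3.3; lmFit, eBayes with trend, 2-sided) on log2(value + 1) of genes whose mean reached 1, and the change between days as the interaction over 12 libraries. The added 1 understates changes of genes with low values. P-values were Benjamini-Hochberg adjusted over all tested genes. TPM had been assumed when the tests were fixed, and the test was kept. The fit was tested on simulated data. Genes given in full are, per role group and day, the 2 with the smallest p. Members, lists and rules were chosen with earlier results of these data known. Alternatives were other scalings, pseudocounts (0.1 and 0.5), filters, library weights, a replicate block, GC trend removal, restored totals and single libraries left out. On day 7 deviations of libraries with equal number correlated by 0.485, 0.559 and 0.128, all over 0.1. The fits reported for both days nonetheless held no replicate block and treated the libraries as unpaired. The block was used only as an alternative. Lasered replicate 3 correlated more with control replicate 1 (0.205) than with its own number, and the labels do not state the pairing. Tables and figures were made in Python 3.11.15 with pandas 2.3.3, SciPy 1.17.1, NumPy 2.4.6 and matplotlib 3.10.9.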

Additional observations from a re-analysis of the deposited data

How the results depend on the processing

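Over 24 named gene results and 405 alternatives, 389 kept direction and side of the threshold, 15 reversed and 1 newly passed (Pgam1 on day 3 with library weights, 1.04, adjusted p = 0.0448 by limma). That made 1 glycolysis member past the threshold on day 3, against 0 in the other settings; hypoxia members numbered 0 in every setting. Day 3 correlations of equal-numbered libraries were 0.041, 0.016 and 0.077, each the highest of its library, and do not show pairing. Of all genes, 25 passed on day 3: 14 after median-of-ratios rescaling, 12 after quantile normalization, 0 without the filter, 0 with the replicate block, 369 with library weights, 1 with GC trend removed, 0 with that and the replicate block, and 0 to 294 with single libraries left out (294 without lasered replicate 1, 1 without lasered replicate 3, 0 without control replicate 1, 2 or 3). On day 7, 38 passed: 24 after median-of-ratios rescaling, 13 without the filter, 114 with library weights, 76 with GC trend removed, 53 with the replicate block, and 0 to 41 with single libraries left out (0 without lasered or control replicate 3, 6 to 11 without lasered replicate 1 or control replicate 1 or 2). For the change between days, 0 passed: 2 with pseudocount 0.1, 28 without the filter, 1119 with library weights and 0 to 3 with single libraries left out. The replicate block changed no call of a member. All reversals were of day 7 differences. With library weights Hif1a was at -0.22 (0.48 as reported) and Pgam1 at 0.09. Ndrg1 was at -0.03 after median-of-ratios rescaling and -0.01 with GC trend removed, with or without the replicate block. Slc2a1 was at -0.08 after median-of-ratios rescaling, -0.01 with library weights and -0.02 with GC trend removed, with or without the block. With single libraries left out, Hif1a ranged from -0.12 to 0.94, Slc2a1 reached -0.08 and -0.02, Slc2a3 0.03 and 0.04, and Pgam1 ranged from -0.20 to 0.00. The cause of these changes was not tested. Rescaling moved the day 3 median of all genes from 0.16 to -0.02 (median of ratios) or -0.07 (quantile), and calls at an unadjusted p under 0.05 from 3476 higher and 385 lower to 2011 and 1463 or 1745 and 1737. Without lasered replicate 1, day 3 medians were 0.21 for hypoxia and 0.12 for glycolysis members; without lasered replicate 2, day 7 medians were -0.19 and 0.00. On day 3 Egln3 and Adm, with at most 16 reads per library, lay under the filter and were not tested.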

Other observations

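Control levels of several members differed widely between the tables of the days, although both hold untreated eyes. The mean of the 3 controls was 0.966 on day 3 and 79.1 on day 7 for Slc16a3 (81.8 times as high), 5.72 and 111.6 for Egln1 (19.5 times), 153.4 and 2555 for Pgam1 (16.7 times) and 29.5 and 379.8 for Hk1 (12.9 times). Ndrg1 went from 12.4 to 130.5 (10.6 times). In the other direction, Bnip3l was at 150.6 on day 3 and 27.8 on day 7 (0.185 times) and Bnip3 at 384.6 and 119.2 (0.31 times), while Pkm was at 3507 and 3583. The tables were normalized separately and differ in depth. Across 17611 genes the log2 ratio of the control means correlated with exon GC content by 0.61, and across 34 members by 0.44; genes of the same libraries are not independent. Day and table cannot be told apart, so no level was compared between days in the tests. The members with the widest gaps include Slc16a3, Pgam1, Hk1 and Ndrg1, 4 of the 5 members whose unadjusted p was under 0.05 on day 3. Both measures use the same day 3 controls, and a low control mean raises both, so their coincidence is partly built in. Egln1 and the other Aldoa entry (12.4 times) also had wide gaps, with unadjusted p of 0.0747 and 0.471 by limma on day 3.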
